A study of Homo sapiens with 52 samples.

Results

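The junction genes described here are CLDN1, CLDN3, CLDN4, CLDN7, OCLN, TJP1, F11R, CDH1, EPCAM and ESRP1. They were chosen by name, as genes of the epithelial cell junction and its surroundings, and are 10 of the 78894 genes in the gene-level tables. Their levels and their responses to knockdown of NRP1, a co-receptor for semaphorins and VEGF, were followed over 52 bulk RNA sequencing samples in 18 groups. The samples came from SUM159PT (17 samples), MDA-MB-231 (18 samples) and HS578T (17 samples), established human breast cancer cell lines of the claudin-low subtype. In each cell line, 3 groups received 20 nM siRNA by reverse transfection with RNA taken after 72 hrs: the control siNT, which targets no gene, and the NRP1 siRNAs siNRP1#3 and siNRP1#5. Lentiviral shRNA was used in the remaining 3 groups, the control shNT and the knockdowns shNRP1#3 and shNRP1#5. Transduced cells were selected with puromycin, then seeded and harvested after 48 hrs, with consecutive passages as replicates. Sequence #3 was aimed at transmembrane NRP1 alone and sequence #5 at transmembrane and soluble NRP1. Sequence #5 was the same in the siRNA and the shRNA, whereas sequence #3 differed between them. Groups held 3 samples, except for 2 groups of 2 samples, SUM159PT siNRP1#5 without a replicate 1 and HS578T shNRP1#3 without a replicate 3.

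Tight junctions seal the space between neighbouring epithelial cells: claudins and occludin (OCLN) span the membranes and meet across the gap, JAM-A (F11R) is an adhesion molecule of the immunoglobulin family beside them, and ZO-1 (TJP1) is the scaffold that ties them to actin. Below them, E-cadherin (CDH1) joins cells in the adherens junction, EpCAM (EPCAM) is an epithelial adhesion protein that binds CLDN7, and ESRP1 is a splicing factor of epithelial cells. Claudin-low tumours are named for low CLDN3, CLDN4 and CLDN7, usually have little CDH1, and express mesenchymal genes such as VIM and the CDH1 repressors ZEB1 and SNAI1.

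Library totals lay between 25310443 and 72003442 expected counts, with a median of 44804505. VIM was abundant in each cell line (median 2496 to 4349 TPM, a level scaled for transcript length and library size) and ZEB1 was detected in every sample, while GRHL2, an epithelial transcription factor, had a median of 0 TPM in each. CD3E and ALB, markers of T cells and liver, were at or under 0.15 TPM in every sample, while PTPRC and PECAM1, markers of leukocytes and endothelium, had medians of 3.41 and 6.28 TPM in SUM159PT and at most 1.3 TPM in any sample of the others. The knockdown was checked first: the fitted log2 fold change of NRP1 was below 0 in all 12 comparisons, from -0.70 for MDA-MB-231 siNRP1#3 to -4.88 for MDA-MB-231 siNRP1#5, and passed the threshold in all but HS578T shNRP1#3 (-1.59, edgeR adjusted p = 0.069). Genes that 1 cell line expresses and another lacks gave the share of foreign RNA in each library. In HS578T siNRP1#5, MDA-MB-231 RNA made up 22.6, 22.6 and 12.0% of replicates 1 to 3 by 3 strict marker genes, and 24.7, 18.3 and 13.3% by 58 markers chosen on their mean. Replicate 2 also held 6.74% SUM159PT RNA. In HS578T siNRP1#3 the share of MDA-MB-231 RNA was 1.92, 2.90 and 6.69%, and in HS578T siNT it was 0.644, 0.745 and 1.18%. Outside these groups no share exceeded 2.33%, which was SUM159PT RNA in MDA-MB-231 shNRP1#3 replicate 3. MDA-MB-231 expresses most of the junction genes and HS578T does not, so the HS578T calls of a junction gene against siNT are given below with and without this RNA. Other HS578T siRNA values come from the libraries as deposited, this RNA included, unless a value without it is given.

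The genes lie on 9 chromosomes of GRCh38, and CLDN3 (chr7:73768997-73770270, minus strand) and CLDN4 (chr7:73799542-73832690, plus strand) are neighbours. Promoter windows of RefSeq (GRCh38.p14, 250 bases before to 50 after a transcript's start) were found for 6 of the 10 genes, in 11 windows. Windows of CLDN1, CLDN4 and OCLN, which were called higher in SUM159PT shNRP1#5, and of CLDN3 and CLDN7 are shown 5′ to 3′ on the gene's strand. CLDN3, CLDN4, CLDN7 and OCLN were called lower in MDA-MB-231 shNRP1#5. Capitals mark CAGGTG or its reverse complement CACCTG, the E-box that ZEB1 and SNAI1 bind.
CLDN1, chr3:190322397-190322696, minus strand: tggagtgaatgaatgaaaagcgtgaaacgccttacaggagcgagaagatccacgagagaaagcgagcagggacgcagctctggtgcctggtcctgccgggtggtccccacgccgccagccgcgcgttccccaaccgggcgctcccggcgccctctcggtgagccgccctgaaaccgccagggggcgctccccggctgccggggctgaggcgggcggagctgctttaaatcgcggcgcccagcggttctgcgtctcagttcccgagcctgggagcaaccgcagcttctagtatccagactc
CLDN4, chr7:73830746-73831045, plus strand: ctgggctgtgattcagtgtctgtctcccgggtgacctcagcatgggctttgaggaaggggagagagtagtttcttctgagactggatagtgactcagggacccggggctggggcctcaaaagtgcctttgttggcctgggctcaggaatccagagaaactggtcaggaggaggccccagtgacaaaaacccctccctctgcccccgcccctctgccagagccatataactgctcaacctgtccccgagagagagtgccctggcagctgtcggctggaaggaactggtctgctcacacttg
CLDN3, chr7:73770221-73770520, minus strand: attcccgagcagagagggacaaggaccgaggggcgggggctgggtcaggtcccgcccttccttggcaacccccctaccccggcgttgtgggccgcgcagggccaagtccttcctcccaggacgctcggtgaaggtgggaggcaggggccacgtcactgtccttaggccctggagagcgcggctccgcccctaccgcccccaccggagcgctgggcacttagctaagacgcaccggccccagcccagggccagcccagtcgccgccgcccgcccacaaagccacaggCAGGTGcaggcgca
CLDN7, chr17:7262429-7262728, minus strand: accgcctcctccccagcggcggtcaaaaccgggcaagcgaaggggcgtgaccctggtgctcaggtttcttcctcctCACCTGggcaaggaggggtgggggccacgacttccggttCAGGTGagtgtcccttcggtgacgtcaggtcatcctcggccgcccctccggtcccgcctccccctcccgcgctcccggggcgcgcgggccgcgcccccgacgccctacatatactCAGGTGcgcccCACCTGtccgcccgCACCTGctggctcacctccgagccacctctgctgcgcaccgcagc
OCLN, chr5:69492540-69492839, plus strand: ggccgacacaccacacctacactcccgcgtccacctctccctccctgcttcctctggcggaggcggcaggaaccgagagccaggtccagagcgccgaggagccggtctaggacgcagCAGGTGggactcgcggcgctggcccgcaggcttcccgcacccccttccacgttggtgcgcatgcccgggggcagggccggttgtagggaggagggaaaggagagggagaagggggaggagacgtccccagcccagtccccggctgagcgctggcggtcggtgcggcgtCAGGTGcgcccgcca

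The E-box occurred in 5 of these 11 windows of the junction genes, and in 20.6% of the 35116 windows of all genes, chromosome 8 included. Among the windows printed above, that of CLDN7 held 5 copies, that of OCLN 2 and that of CLDN3 1, while those of CLDN1 and CLDN4 held 0. The other OCLN window and 1 of the 4 TJP1 windows held 1 copy each, and the other CLDN7 window held 0. These are matches of letters and were not tested as binding sites.

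MDA-MB-231 carried most of the junction transcripts in the non-targeting samples. CLDN4 was the most abundant of the 10, with 164, 164 and 166 TPM in siNT and 134, 174 and 165 TPM in shNT. The same gene had 0.72 to 1.56 TPM in the 6 SUM159PT samples and 0.23 to 2.34 TPM in the 6 HS578T samples, so that no sample of either came near MDA-MB-231. On the log2 scale MDA-MB-231 was 6.22 ± 0.31 (SE) above HS578T (edgeR adjusted p = 2.97e-20), and the difference of SUM159PT from MDA-MB-231 was -6.42 ± 0.31 (edgeR adjusted p = 1.35e-20).

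**Figure D1:**
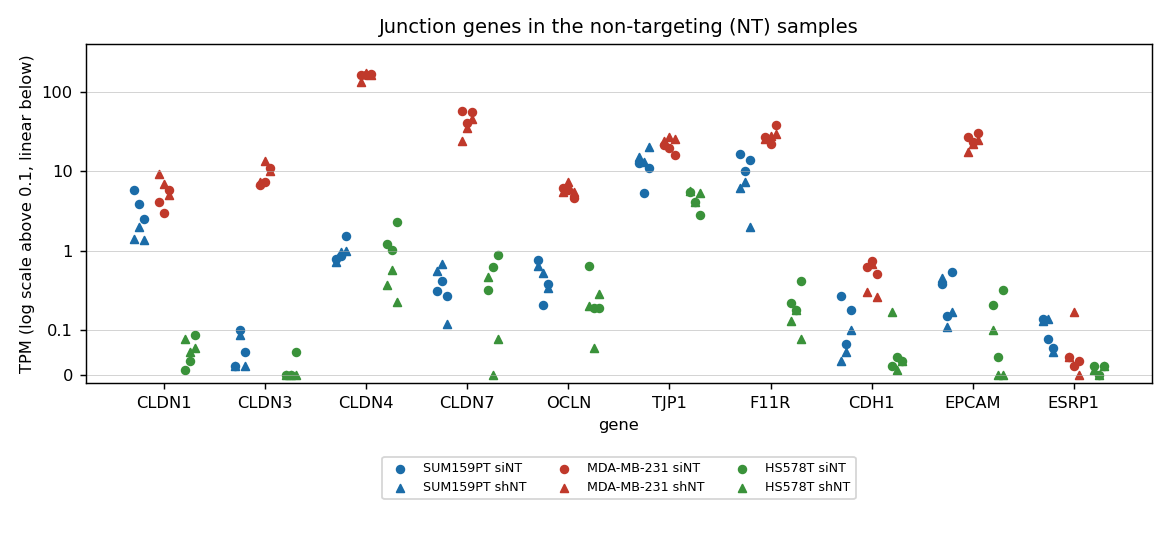
Level of each junction gene (TPM, log scale above 0.1 and linear below) in the 6 non-targeting samples of each cell line, circles for siNT and triangles for shNT. CLDN3, CLDN4, CLDN7, OCLN, F11R and EPCAM of MDA-MB-231 lie above every sample of the other 2 cell lines, and all values of ESRP1 are at or under 0.17 TPM.

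CLDN7 (24.4 to 57.6 TPM), EPCAM (17.6 to 30.0 TPM), CLDN3 (6.70 to 13.4 TPM) and OCLN (4.67 to 7.45 TPM) were likewise highest in MDA-MB-231, and none of them passed 0.89 TPM in a non-targeting sample of SUM159PT or HS578T. The scaffold TJP1 was the member shared by all 3 cell lines, with 16.0 to 27.2 TPM in MDA-MB-231, 5.29 to 20.3 TPM in SUM159PT and 2.80 to 5.60 TPM in HS578T. F11R followed the same order, with 22.3 to 37.9, 1.97 to 16.4 and 0.08 to 0.42 TPM. CLDN1 separated HS578T (0.01 to 0.09 TPM) from SUM159PT (1.38 to 5.79 TPM) and MDA-MB-231 (2.97 to 9.39 TPM), and the last pair did not pass the threshold (log2 difference -0.70 ± 0.31, edgeR adjusted p = 0.0525). CDH1 was scarce everywhere, at 0.26 to 0.75 TPM in MDA-MB-231, 0.03 to 0.27 TPM in SUM159PT and 0.01 to 0.17 TPM in HS578T. ESRP1 stayed at or under 0.17 TPM, with at most 19 counts in a library.

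Of 30 pairs of a gene and 2 cell lines, 24 passed the threshold of adjusted p under 0.05 in one fit over all 52 samples, in which 59.4% of all genes passed between SUM159PT and MDA-MB-231, 63.5% between SUM159PT and HS578T, and 70.2% between MDA-MB-231 and HS578T. The order of levels was therefore MDA-MB-231, SUM159PT, HS578T for OCLN, TJP1, F11R and CLDN3. For CLDN3 the difference between SUM159PT and HS578T rested on 1 to 5 against 0 to 2 counts in a library. SUM159PT and HS578T did not differ beyond the threshold in CLDN4, CLDN7, CDH1 or EPCAM, and MDA-MB-231 and HS578T did not in ESRP1, which was higher in SUM159PT than in either.

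Some members differed between the 2 kinds of control, in MDA-MB-231 and HS578T at shares below or near those of all genes. Between shNT and siNT, which differ in how the RNA was delivered, in selection and in harvest, 3 of 9 tested members of SUM159PT passed (14.4% of all genes), 1 of 9 of MDA-MB-231 (20.6%) and 2 of 10 of HS578T (17.9%), all 6 lower with shNT. The SUM159PT genes were CLDN1 (log2 -1.48 ± 0.47), F11R (-1.67 ± 0.47) and CDH1 (-3.20 ± 0.76). In MDA-MB-231 it was EPCAM (-0.59 ± 0.15), and in HS578T they were CLDN4 (-1.87 ± 0.48) and F11R (-2.97 ± 0.75). The HS578T siNT samples held up to 1.18% MDA-MB-231 RNA, which would give 1.05 to 1.93 of their 3.18 to 6.05 CPM (counts scaled to library size) of CLDN4, and its part in the HS578T difference was not tested. Each knockdown was for this reason set against its own control.

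In SUM159PT the shRNAs raised CLDN1 and shNRP1#5 raised CLDN4, while most other members did not pass the threshold. CLDN1, a barrier-forming claudin, had 1.40, 1.99 and 1.38 TPM with shNT, 23.0, 27.4 and 15.6 TPM with shNRP1#3, and 10.6, 15.4 and 9.06 TPM with shNRP1#5. Every shNRP1 sample lay above every shNT sample. CLDN1 rose by 3.65 ± 0.50 on the log2 scale with shNRP1#3 (edgeR adjusted p = 0.00125) and by 2.73 ± 0.48 with shNRP1#5 (edgeR adjusted p = 0.0031). With siRNA the values were not set apart in this way: siNT had 5.79, 3.89 and 2.51 TPM, siNRP1#3 5.73, 3.82 and 6.76 TPM, and siNRP1#5 5.33 and 1.24 TPM. These groups overlapped, and neither fold change passed (0.35 ± 0.45 and 0.21 ± 0.51).

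**Figure D2:**
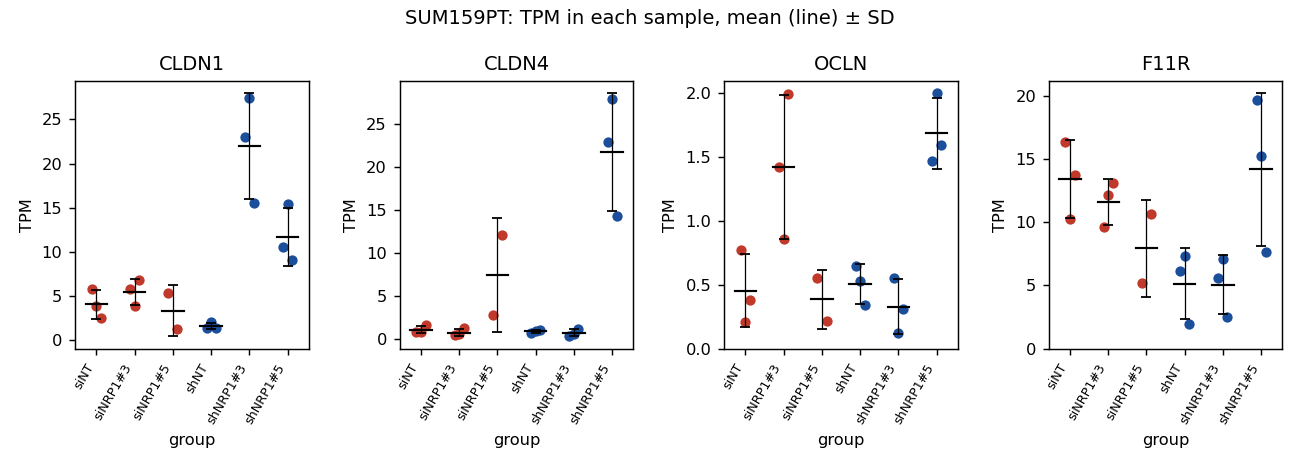
TPM of CLDN1, CLDN4, OCLN and F11R in every SUM159PT sample (points), by group, with the group mean (line) and SD (bars), red for siRNA and blue for shRNA. CLDN1 is high in both shNRP1 groups, and CLDN4 reaches 14.3 to 27.9 TPM with shNRP1#5 and stays at or under 1.16 TPM with shNRP1#3.

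CLDN4 responded to sequence #5. It had 0.72, 0.97 and 0.99 TPM with shNT and 22.8, 27.9 and 14.3 TPM with shNRP1#5, a rise of 4.06 ± 0.42 on the log2 scale (edgeR adjusted p = 4.37e-05). With siNRP1#5 its 2 samples had 2.73 and 12.1 TPM against 0.80, 0.86 and 1.56 TPM with siNT, a rise of 2.52 ± 0.42 (edgeR adjusted p = 0.00125). Both siNRP1#5 samples lay above the siNT samples, yet they were far apart from each other, and in a fit of these 2 groups alone the adjusted p was 0.068 (edgeR). The rise was 3.08 without siNRP1#5 replicate 2 and 1.52 without replicate 3, and was called in both cases. With sequence #3, CLDN4 had 0.40, 0.58 and 1.24 TPM as siRNA and 0.37, 0.56 and 1.16 TPM as shRNA, in the range of or below the controls, and neither change passed. Foreign MDA-MB-231 RNA was 0.383, 0.935 and 0.0493% in the shNRP1#5 samples and at most 0.186% in the siNRP1#5 samples, and both CLDN4 calls held after its subtraction.

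OCLN, the tetraspan protein of the tight junction, had 0.65, 0.53 and 0.34 TPM with shNT and 1.47, 2.00 and 1.59 TPM with shNRP1#5. The groups did not overlap and OCLN rose by 1.54 ± 0.42 (edgeR adjusted p = 0.0389). The call was lost without any one of the shNT replicates or without shNRP1#5 replicate 2 or 3, with log2 fold changes of 1.32 to 1.69 and edgeR adjusted p of 0.0781 to 0.18. With siNRP1#3, OCLN had 1.42, 0.86 and 1.99 TPM against 0.77, 0.21 and 0.38 TPM with siNT, also without overlap, and missed the threshold (1.10 ± 0.42, edgeR adjusted p = 0.113). CDH1 fell with siNRP1#3, from 48, 15 and 23 counts in siNT to 1, 3 and 5 counts, by 3.27 ± 0.78 on the log2 scale (edgeR adjusted p = 0.0156). That call rested on few reads, and it was lost without siNT replicate 1 (-2.75, edgeR adjusted p = 0.0587) or siNRP1#3 replicate 1 (-2.92, edgeR adjusted p = 0.0837).

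CLDN1, CLDN4 and OCLN were thus 3 of 9 tested members called higher with shNRP1#5, where 3.24% of all genes were called higher and 5.94% were called in either direction. The median log2 fold change of the 9 members was 1.47, against 0.03 over all genes tested. F11R had 19.7, 15.2 and 7.65 TPM with shNRP1#5 and 6.13, 7.33 and 1.97 TPM with shNT, and missed the threshold (1.47 ± 0.47, edgeR adjusted p = 0.0773). One member was called with each of siNRP1#3 (8.66% of all genes), siNRP1#5 (17.9%) and shNRP1#3 (1.40%). TJP1 had fitted changes of -0.41 to 0.05 over the 4 knockdowns, with SE of 0.29 to 0.33. CLDN7 and EPCAM had at most 1.81 and 0.94 TPM in any SUM159PT sample, ESRP1 at most 0.23 TPM, and CLDN3, at most 0.13 TPM, was too low to be tested. A change per cell and a change in the share of cells that express a gene cannot be told apart in bulk RNA.

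In MDA-MB-231 shNRP1#5 gave more lower calls of junction genes than the other knockdowns (6 of 9 tested, beside 11.9% of all genes). CDH1 went opposite ways with the 2 siRNAs. CDH1 had 0.63, 0.75 and 0.51 TPM with siNT, 0.02, 0.04 and 0.10 TPM with siNRP1#3, and 3.33, 3.18 and 2.87 TPM with siNRP1#5. The 3 groups did not overlap. In counts, siNRP1#3 samples held 2, 6 and 3 CDH1 reads, siNT samples 30, 62 and 83, and siNRP1#5 samples 427, 288 and 379. CDH1 fell by 3.83 ± 0.50 on the log2 scale with siNRP1#3 (edgeR adjusted p = 2.09e-05) and rose by 2.88 ± 0.35 with siNRP1#5 (edgeR adjusted p = 4.9e-06). The level reached with siNRP1#5 was still below that of TJP1, F11R or EPCAM in the same samples. NRP1 itself fell by 0.70 ± 0.15 with siNRP1#3 and by 4.88 ± 0.18 with siNRP1#5.

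**Figure D3:**
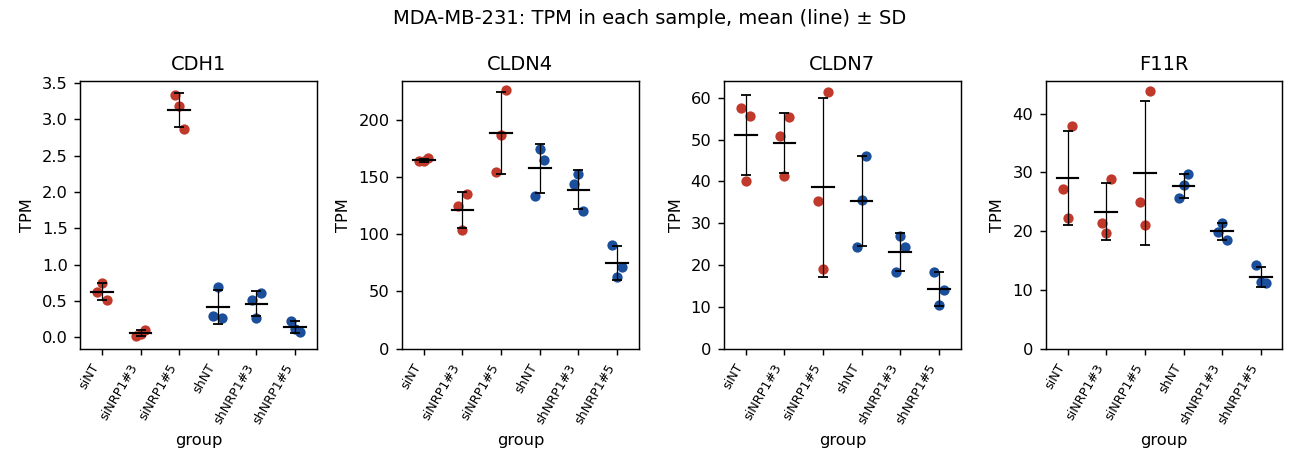
TPM of CDH1, CLDN4, CLDN7 and F11R in every MDA-MB-231 sample (points), by group, with the group mean (line) and SD (bars), red for siRNA and blue for shRNA. CDH1 is near 0 with siNRP1#3 and at 2.87 to 3.33 TPM with siNRP1#5, and CLDN4 and F11R are lowest with shNRP1#5.

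With shNRP1#5, 6 of 9 tested members were called lower, where 11.9% of all genes were called lower and 20.7% in either direction. The median log2 fold change of the members was -0.92, against 0.02 over all genes tested. CLDN4 fell from 134, 174 and 165 TPM with shNT to 91.1, 62.6 and 71.6 TPM, by 1.00 ± 0.18 on the log2 scale (edgeR adjusted p = 0.000745). F11R fell from 25.6, 27.8 and 29.7 TPM to 14.2, 11.4 and 11.2 TPM, by 1.04 ± 0.25 (edgeR adjusted p = 0.00778). Neither gene's groups overlapped, and both calls held without any one sample.

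CLDN7 had 24.4, 35.5 and 46.1 TPM with shNT and 18.4, 10.4 and 14.0 TPM with shNRP1#5 (-1.24 ± 0.33, edgeR adjusted p = 0.015). OCLN had 5.48, 7.45 and 5.48 TPM against 3.86, 3.54 and 3.46 TPM (-0.73 ± 0.16, edgeR adjusted p = 0.00367). CLDN3 had 7.28, 13.4 and 10.0 TPM against 5.79, 5.32 and 4.35 TPM (-0.92 ± 0.28, edgeR adjusted p = 0.025). In all 3 genes the groups did not overlap. The CLDN7 call was lost without shNT replicate 3, shNRP1#5 replicate 2 or shNRP1#5 replicate 3 (-1.22 to -1.04, edgeR adjusted p 0.0589 to 0.0749), and the CLDN3 call without shNT replicate 2 or 3 or shNRP1#5 replicate 2 or 3 (-0.95 to -0.67, edgeR adjusted p 0.0612 to 0.142). CDH1 fell by 1.89 ± 0.41 (edgeR adjusted p = 0.00337), from 0.30, 0.69 and 0.26 TPM to 0.23, 0.11 and 0.07 TPM, and with limma on log2(TPM + 0.5) it did not pass (-0.50, limma adjusted p = 0.0736). TJP1 (-0.13 ± 0.15), EPCAM (-0.05 ± 0.15) and CLDN1 (-0.62 ± 0.41) did not pass.

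With siNRP1#3, 3 of 9 members were called (25.7% of all genes), all lower: CDH1, TJP1 and OCLN. TJP1 had 21.3, 19.4 and 16.0 TPM with siNT and 11.6, 12.1 and 12.9 TPM with siNRP1#3, without overlap (-0.63 ± 0.15, edgeR adjusted p = 0.00583). OCLN had 6.19, 5.81 and 4.67 TPM and 4.50, 4.29 and 5.86 TPM, which overlap (-0.47 ± 0.16, edgeR adjusted p = 0.0347), and its call was lost without siNT replicate 1 or any one siNRP1#3 replicate (-0.50 to -0.37, edgeR adjusted p 0.0748 to 0.153), with limma (-0.17, limma adjusted p = 0.554), and without a filter on low counts (-0.48, edgeR adjusted p = 0.0817).

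With siNRP1#5 3 of 9 members were called as well (29.4% of all genes), with OCLN (-0.88 ± 0.16, edgeR adjusted p = 0.000408) and CLDN3 (-0.78 ± 0.28, edgeR adjusted p = 0.0441) lower beside the rise of CDH1. OCLN had 3.78, 2.67 and 2.32 TPM and CLDN3 2.87, 3.42 and 6.14 TPM with siNRP1#5, each below the siNT samples (CLDN3 6.70, 7.43 and 11.1 TPM). The CLDN3 call was lost without siNT replicate 2 or 3 or siNRP1#5 replicate 1 or 2 (-0.85 to -0.50, edgeR adjusted p 0.06 to 0.208), with RLE factors (-0.75, edgeR adjusted p = 0.0619), and in a fit of the 2 groups alone (-0.78, edgeR adjusted p = 0.182). With shNRP1#3, 0 of 9 members were called by edgeR (3.65% of all genes), where 2 (CLDN3 and OCLN, both toward lower) had an unadjusted p under 0.05 and DESeq2 called 0. NRP1 had nonetheless changed by -1.48 with shNRP1#3, against -1.05 with shNRP1#5.

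**Figure D4:**
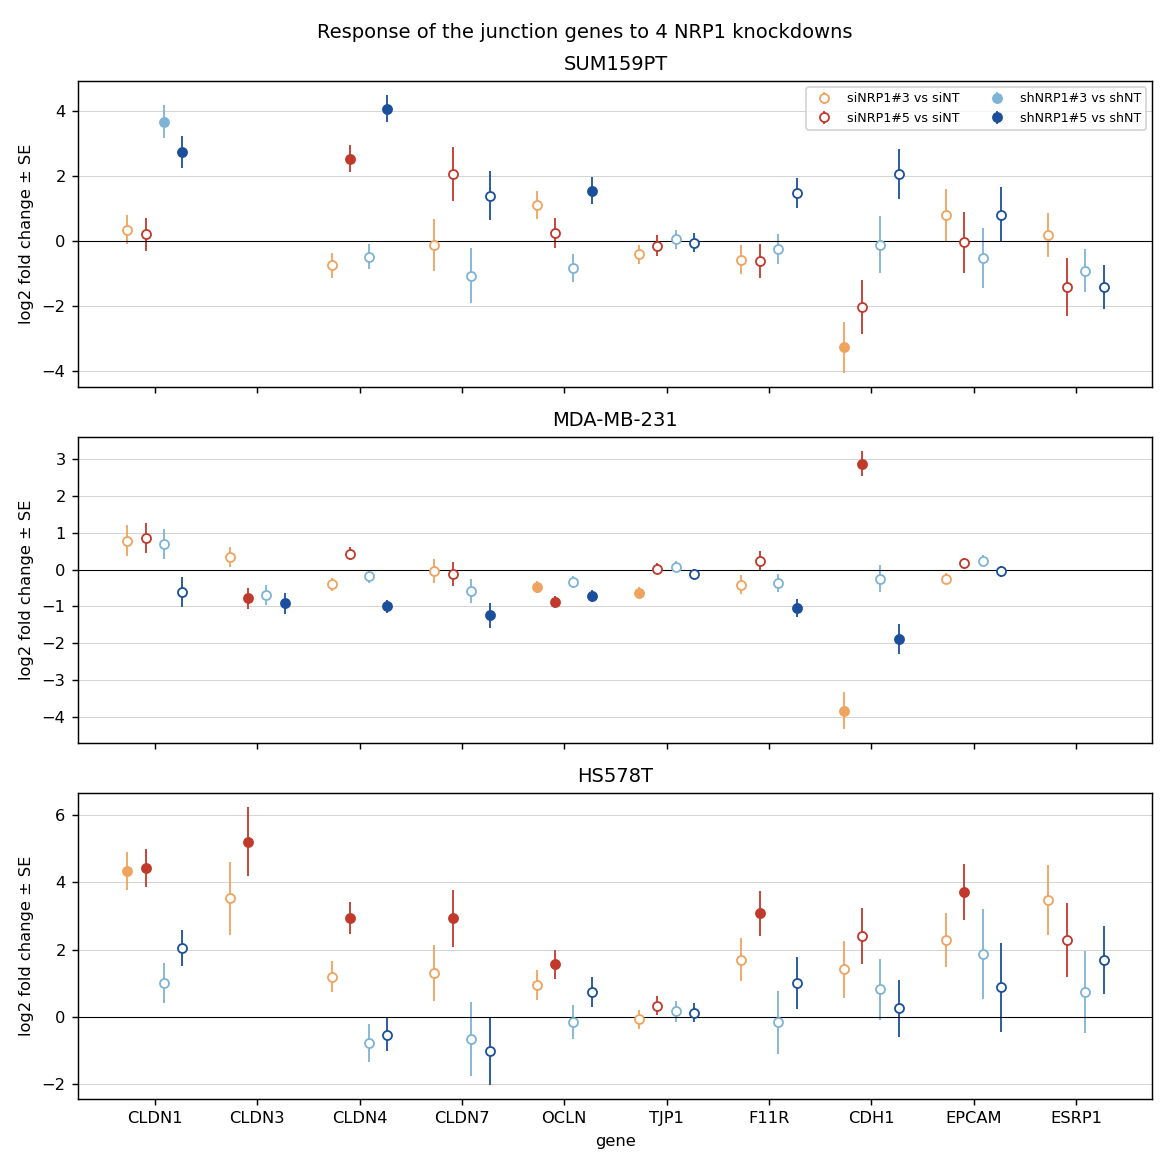
Log2 fold change (± SE) of each junction gene against the matching non-targeting control, in 3 panels by cell line, filled where edgeR's adjusted p is under 0.05. Genes too low to be tested, or without a count in both groups, are left out; the HS578T siNRP1#5 values (red, lower panel) come from libraries with 12.0 to 22.6% MDA-MB-231 RNA.

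In HS578T, CLDN1 rose with both siRNAs, and the other rises called with siNRP1#5 were seen in the libraries with 12.0 to 22.6% MDA-MB-231 RNA. CLDN1 had 1, 4 and 11 counts with siNT (0.01, 0.03 and 0.09 TPM), 113, 104 and 68 counts with siNRP1#3 (2.11, 0.91 and 0.73 TPM), and 117, 136 and 121 counts with siNRP1#5 (1.11, 1.35 and 0.91 TPM). No knockdown sample overlapped with siNT. CLDN1 rose by 4.34 ± 0.57 on the log2 scale with siNRP1#3 (edgeR adjusted p = 0.000464) and by 4.43 ± 0.57 with siNRP1#5 (edgeR adjusted p = 0.000177). In CPM, siNRP1#3 samples had 5.35, 2.68 and 2.57, of which MDA-MB-231 RNA would bring 0.209, 0.315 and 0.726, and siNRP1#5 samples had 4.59, 3.55 and 3.15, of which it would bring 2.45, 2.46 and 1.3. After subtraction of the foreign reads both rises still passed, at 5.19 ± 0.79 (edgeR adjusted p = 0.00227) and 4.48 ± 0.78 (edgeR adjusted p = 0.0023). The reads taken off followed the non-targeting level of MDA-MB-231, and in siNT replicate 1 they exceeded those present (0.0700 against 0.0378 CPM). MDA-MB-231 had mean CLDN1 of 8.47 CPM with siNT, 13.2 with shNT, 14.4 with siNRP1#3 and 15.2 with siNRP1#5. The part of RNA from MDA-MB-231 knockdown cells in these rises was not tested. Without the siNRP1#5 samples and siNRP1#3 replicate 3, CLDN1 rose by 4.54 ± 0.65 with siNRP1#3 (edgeR adjusted p = 0.00368). The level stayed under that of SUM159PT and MDA-MB-231 siNT cells.

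With siNRP1#5, 7 of 10 members were called higher, where 10.1% of all genes were called higher and 18.7% in either direction, with a median of 2.93 over the members and 0.03 over all genes tested. CLDN4 had 25.6, 16.2 and 9.15 TPM with siNRP1#5, 2.77, 4.12 and 8.56 TPM with siNRP1#3 and 1.22, 1.02 and 2.34 TPM with siNT. The siNRP1#5 samples were all above the other two groups, and in siNT and siNRP1#3 the replicate with the most MDA-MB-231 RNA, replicate 3, also had the most CLDN4. In CPM, siNRP1#5 samples had 51.5, 25.3 and 19.9 of CLDN4, and the foreign RNA would bring 36.9, 37.0 and 19.6. The fitted rise of 2.93 ± 0.47 (edgeR adjusted p = 0.000754) became 1.22 ± 1.17 (edgeR adjusted p = 0.516) after subtraction. In replicate 2 the reads taken off exceeded those present, and the count was set to 0.

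**Figure D5:**
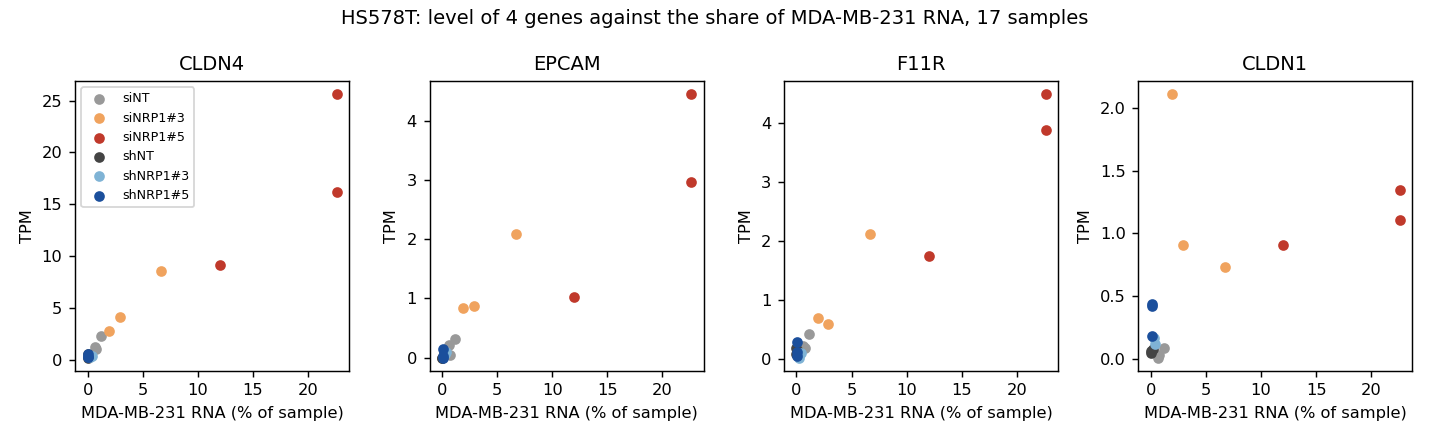
TPM of CLDN4, EPCAM, F11R and CLDN1 in the 17 HS578T samples against the percent of MDA-MB-231 RNA in the library, coloured by group. CLDN4, EPCAM and F11R are highest in the 2 samples with a share of 22.6%, while CLDN1 is highest (2.11 TPM) in a siNRP1#3 sample with a share of 1.92%.

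F11R (4.49, 3.89 and 1.75 TPM), EPCAM (4.45, 2.97 and 1.02 TPM) and CLDN7 (7.43, 3.02 and 1.66 TPM) were also called higher with siNRP1#5. Their siNT samples lay at or under 0.89 TPM, below every siNRP1#5 sample, but replicate 3 of siNRP1#3 (2.12, 2.09 and 2.07 TPM), with 6.69% MDA-MB-231 RNA, lay above replicate 3 of siNRP1#5. Their fitted rises of 3.08, 3.72 and 2.93 became 1.15, 2.77 and 1.70 after subtraction, with edgeR adjusted p of 0.587, 0.233 and 0.47. In siNRP1#5 replicates 2 and 3 the MDA-MB-231 reads taken off exceeded those present, and the counts were set to 0. F11R had 13.5 and 7.12 CPM taken off 10.3 and 6.24, EPCAM 4.07 and 2.15 off 3.13 and 1.48, and CLDN7 6.23 and 3.29 off 2.84 and 2.19. OCLN had 0.96, 0.46 and 0.45 TPM against 0.64, 0.19 and 0.19 TPM with siNT, which overlap. Its call (1.56 ± 0.43, edgeR adjusted p = 0.0201) turned to -2.99 ± 0.82 (edgeR adjusted p = 0.027) after subtraction, in which the reads taken off exceeded those present in replicates 1 and 2 (2.75 and 2.76 against 2.55 and 2.02 CPM). CLDN3 had 35, 28 and 26 counts with siNRP1#5 and 0, 0 and 2 counts with siNT (edgeR adjusted p = 0.00562), and was too low to be tested after subtraction. There the reads taken off exceeded those present in every siNRP1#5 replicate (1.53, 1.54 and 0.812 against 1.37, 0.730 and 0.677 CPM). CDH1 missed the threshold with all reads (2.41 ± 0.83, edgeR adjusted p = 0.0517) and after subtraction (2.45 ± 1.06, edgeR adjusted p = 0.135). In siNRP1#5 replicate 1 the subtraction took 0.213 off 1.65 CPM of CDH1, at the non-targeting level of MDA-MB-231. That line had a mean of 1.14 CPM with siNT, 0.747 with shNT and 8.36 with siNRP1#5. RNA from MDA-MB-231 siNRP1#5 cells was not subtracted, and its part in the CDH1 values was not tested. With all reads kept, the CLDN7 call was lost without siNT replicate 1 or 2 or siNRP1#5 replicate 1 (2.02 to 2.86, edgeR adjusted p 0.0793 to 0.12), and the OCLN call without siNT replicate 2 or 3 or siNRP1#5 replicate 1 (1.37 to 1.59, edgeR adjusted p 0.0633 to 0.0787) and with limma (0.43, limma adjusted p = 0.295).

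With siNRP1#3, CLDN1 was the 1 member of 10 called (4.65% of all genes). ESRP1, with 0.32, 0.12 and 0.02 TPM against 0.02, 0.00 and 0.02 TPM, did not pass in the fit of all samples (3.49 ± 1.04, edgeR adjusted p = 0.0656) and passed once the siNRP1#5 samples and siNRP1#3 replicate 3 were left out (4.01 ± 0.99, edgeR adjusted p = 0.0482). In MDA-MB-231 ESRP1 was at or under 0.21 TPM in every sample. With the shRNAs no member passed, with 0 of 10 called by edgeR with shNRP1#3 (0.0356% of all genes) and 0 of 10 with shNRP1#5 (0.946%), where 0 and 1 members had an unadjusted p under 0.05 and DESeq2 called 0 and 1, in shNRP1#5 CLDN1. CLDN1 had 0.08, 0.05 and 0.06 TPM with shNT and 0.44, 0.42 and 0.18 TPM with shNRP1#5, without overlap (2.05 ± 0.53, edgeR adjusted p = 0.0752). In HS578T the same-numbered shRNA samples deviated together, and CLDN1 passed with shNRP1#5 once replicate number entered the fit as a block (2.00 ± 0.48, edgeR adjusted p = 0.0237). TJP1 had 2.80 to 7.60 TPM in all 17 samples and no fold change beyond 0.33. CLDN3 had 0 counts in all 8 shRNA samples, a count that allows up to 3 in a library.

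Sequence #5 and sequence #3 were then compared directly. In SUM159PT, CLDN4 was the 1 of 9 members called between siNRP1#5 and siNRP1#3 (29.7% of all genes), 3.28 ± 0.43 higher with #5 (edgeR adjusted p = 8.66e-05). Between the shRNAs 3 of 9 were called (8.71%), all higher with #5: CLDN4 (4.55 ± 0.43), OCLN (2.39 ± 0.44) and F11R (1.72 ± 0.47). CLDN1, which rose with both shRNAs, did not differ between them beyond the threshold (-0.93 ± 0.45, edgeR adjusted p = 0.259).

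In MDA-MB-231, 6 of 9 members were called between siNRP1#5 and siNRP1#3 (39.0% of all genes). CDH1 was 6.71 ± 0.48 higher with siNRP1#5 (edgeR adjusted p = 4.09e-09). CLDN4 (0.84 ± 0.18), TJP1 (0.65 ± 0.15), F11R (0.65 ± 0.25) and EPCAM (0.42 ± 0.15) were higher with siNRP1#5 as well, and CLDN3 was lower (-1.13 ± 0.28). Between shNRP1#5 and shNRP1#3 3 of 9 were called (14.2%), all lower with #5, namely CLDN1 (-1.32 ± 0.42), CLDN4 (-0.82 ± 0.18) and CDH1 (-1.64 ± 0.42). CDH1 and CLDN4 were therefore higher with #5 than with #3 as siRNA and lower with #5 than with #3 as shRNA. In HS578T, 1 of 10 members was called between the siRNAs (18.1%), CLDN4 at 1.74 ± 0.45, a difference not computed without the foreign RNA noted above, and 0 of 10 between the shRNAs (0.544%), where 0 had an unadjusted p under 0.05 by edgeR, the tool used for this contrast.

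The same sequence #5 as siRNA and as shRNA gave unlike responses in some members, by a test of the difference between the 2 log2 fold changes. In MDA-MB-231, 3 of 9 members were called (23.7% of all genes). CDH1 changed by 2.88 as siRNA and -1.89 as shRNA, a difference of 4.77 ± 0.53 (edgeR adjusted p = 5.27e-06). CLDN4 changed by 0.44 and -1.0 (difference 1.44 ± 0.25, edgeR adjusted p = 0.000384), and F11R by 0.24 and -1.04 (difference 1.28 ± 0.35, edgeR adjusted p = 0.0137). In SUM159PT 0 of 9 were called (2.51%), where 4 (CLDN1, CLDN4, F11R and CDH1) had an unadjusted p under 0.05 by edgeR, and CLDN1 changed by 0.21 as siRNA and 2.73 as shRNA (difference -2.52 ± 0.71, edgeR adjusted p = 0.0656). In HS578T 1 of 10 was called (0.854%), CLDN4, with 2.93 from the libraries with MDA-MB-231 RNA (1.22 after subtraction, which was not called) and -0.53 as shRNA.

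Whether a response was equal in the 3 cell lines was tested in the fit over all 52 samples. Of 40 pairs of a gene and a knockdown 17 were called unequal: 3 of 10 genes with siNRP1#3 (3.42% of all genes), 8 with siNRP1#5 (18.2%), 1 with shNRP1#3 (0.747%) and 5 with shNRP1#5 (3.81%). Without the HS578T siNRP1#5 samples, where siNRP1#5 was compared between SUM159PT and MDA-MB-231 alone, 11 were called, and after subtraction of foreign reads 8. CLDN4 with shNRP1#5 was the plainest case, with log2 fold changes of 4.06 (SUM159PT), -1.0 (MDA-MB-231) and -0.53 (HS578T) (edgeR adjusted p = 3.66e-08, and 0.00409 after subtraction). In the same order of cell lines, OCLN with shNRP1#5 changed by 1.54, -0.73 and 0.74 (edgeR adjusted p = 0.00782, and 0.0319 after subtraction). CLDN1 with shNRP1#3 changed by 3.65, 0.70 and 1.01 (edgeR adjusted p = 0.0176, and 0.108 after subtraction), and with siNRP1#3 by 0.35, 0.78 and 4.34 (edgeR adjusted p = 0.00257, and 0.00359 after subtraction). CDH1 with siNRP1#3 changed by -3.27, -3.83 and 1.41 (edgeR adjusted p = 0.00258, and 0.0182 after subtraction). Subtraction also ended the shNRP1#5 calls of CDH1 (edgeR adjusted p = 0.0265, then 0.0708) and F11R (edgeR adjusted p = 0.0455, then 0.338). No shNT or shNRP1#5 sample held more than 0.935% RNA of another cell line by the strict markers, and the cause of these losses was not tested. TJP1 and ESRP1 were not called unequal with any of the 4 knockdowns.

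The leading transcript was read from the isoform percent, the share of a gene's TPM given to each transcript. CLDN4-201 held 99.0 to 99.6% of CLDN4 in MDA-MB-231. In SUM159PT its mean share was 68.9% with shNT and 96.8% with shNRP1#5, so most CLDN4 reads after the rise were given to the transcript that MDA-MB-231 uses. Its start is that of the CLDN4 window printed above. CLDN1-201 held 78.5 to 100% of CLDN1 in the SUM159PT and MDA-MB-231 groups, also in the shNRP1 samples where CLDN1 was high. F11R-202 had mean shares of 59.4 to 74.3%, and EPCAM-201 57.5 to 69.0%. TJP1 and OCLN were spread over 12 and 14 listed transcripts, and no leading transcript had a mean share above 42.5%. OCLN also has a near-identical pseudogene copy, OCLNP1, and the estimated counts of OCLN and F11R are not whole, so the levels and calls of both are less certain than those of the claudins.

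Other genes of the junction and of epithelial identity, in lists drawn up by function, moved in both directions. Over the 12 knockdown comparisons the 10 junction genes gave 26 calls in 112 tests (23.2%, or 18.6% without HS578T siNRP1#5), 14 higher and 12 lower, and all genes together 11.3% (10.6%). Other claudins gave 9 higher and 3 lower calls in 76 tests, of which 5 and 3 remained without HS578T siNRP1#5. CLDN2, a channel-forming claudin, was called higher with siNRP1#5 in SUM159PT (5.45 ± 1.35) and MDA-MB-231 (2.14 ± 0.35), and lower with shNRP1#5 in MDA-MB-231 (-1.31 ± 0.34). HS578T siNRP1#5, with its MDA-MB-231 RNA, was the third call higher (3.56 ± 1.16). Other tight junction proteins gave 13 higher (8 without HS578T siNRP1#5) and 20 lower calls in 240 tests, 13 of the lower ones in MDA-MB-231 with siNRP1#3 (8 of 19 tested, where 2680 of all 18800 genes were called lower) and shNRP1#5 (5 of 19, and 2246 of all genes). CGN, the adaptor cingulin, was called higher in 3 comparisons, among them SUM159PT shNRP1#5 (3.67 ± 1.00), where CLDN4 and OCLN rose. MARVELD2, tricellulin, was called higher with siNRP1#3 in SUM159PT (1.16 ± 0.32) and MDA-MB-231 (0.49 ± 0.17) and in HS578T siNRP1#5, and the scaffold MPDZ was called lower in 3 siRNA comparisons (-1.60 to -0.63).

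Adherens junction genes gave 14 higher and 16 lower calls in 140 tests (21.4%, beside 11.3% of all genes). In MDA-MB-231 8 of 11 were called higher with siNRP1#5 and 5 of 11 lower with siNRP1#3, the directions of CDH1, where 2713 and 2680 of all 18800 genes were called in those directions. NECTIN1, an adhesion protein of that junction, was among them (0.59 ± 0.14 and -0.64 ± 0.14), although with the shRNAs it rose (0.53 and 0.97). The mesenchymal cadherin CDH11 had called changes of -1.36, 0.93, -1.34 and -1.55 with siNRP1#3, siNRP1#5, shNRP1#3 and shNRP1#5 in MDA-MB-231, and N-cadherin (CDH2) was called higher in 3 comparisons, among them HS578T shNRP1#5 (0.98 ± 0.21). Desmosome genes gave 9 higher and 10 lower calls in 96 tests and gap junction genes 6 and 5 in 52, with 3 and 4 of the higher calls left without HS578T siNRP1#5. EVPL, the envelope protein envoplakin, was called lower in 3 of the 4 MDA-MB-231 knockdowns (-0.94 to -0.46) and higher in SUM159PT siNRP1#3 (3.55 ± 0.82) and HS578T siNRP1#5 (3.35 ± 0.65). Epithelial surface proteins gave 12 higher and 8 lower calls in 104 tests, or 7 higher without HS578T siNRP1#5. The membrane protease PRSS8 rose with both forms of sequence #5 in SUM159PT (4.58 ± 1.09 and 5.97 ± 0.98), and the related protease ST14 fell in MDA-MB-231 with siNRP1#3, siNRP1#5 and shNRP1#5 (-1.31 to -0.71) and was called higher in HS578T with siNRP1#3 (2.53 ± 0.70) and siNRP1#5 (3.17 ± 0.70).

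Among E-cadherin repressors 4 calls were higher and 5 lower in 76 tests (11.8%), near the 11.3% of all genes. Without HS578T siNRP1#5 the shares were 8.7% of the list and 10.6% of all genes. SNAI1 changed in MDA-MB-231 in the same directions as CDH1 with the siRNAs, by -1.05 ± 0.24 with siNRP1#3 and 1.36 ± 0.23 with siNRP1#5, and not beyond the threshold with shNRP1#5 (0.53 ± 0.23), where CDH1 fell. Epithelial transcription and splicing factors gave 14 higher and 17 lower calls in 120 tests, or 7 higher without HS578T siNRP1#5. RBM47, a splicing factor, was called lower in 3 SUM159PT comparisons (-0.88 to -0.83) and with shNRP1#5 in MDA-MB-231 (-1.26 ± 0.15), and higher in HS578T siNRP1#5. KLF4 was called lower in 4 comparisons and higher in 2, and TP63, the basal epithelial factor p63, lower in 3 and higher in 1. Markers present in claudin-low cells gave 5 and 6 calls in 48 tests, with VIM lower with siNRP1#3 in all 3 cell lines (-0.97 to -0.74). Luminal markers gave 10 higher and 4 lower calls in 72 tests, or 6 higher without HS578T siNRP1#5, with KRT18 higher with siNRP1#5 in all 3 cell lines (0.96 to 1.81). The highest was in HS578T, from the libraries with 12.0 to 22.6% MDA-MB-231 RNA, and KRT18 had a median of 887 TPM in MDA-MB-231 and 273 TPM in HS578T. Markers of immune, endothelial and liver cells gave 2 higher and 1 lower calls in 20 tests.

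The genes whose levels ran closest to each member were sought over the 48 samples with under 5% foreign RNA, by Pearson's r of log2 CPM centred on the mean of the cell line, as a description, since samples of a group share treatment and depth. TJP1 ran with SGMS2 (r = 0.90) and SPAG9 (r = 0.90), and F11R with TSPAN15 (r = 0.89) and P4HA2 (r = 0.88), each with r of 0.84 or more in every cell line. CDH1 ran with AQP5, an aquaporin (r = 0.91), through MDA-MB-231 (r = 0.98), with -0.08 in SUM159PT and 0.32 in HS578T. CLDN4 ran with ADAMTS4 (r = 0.86) and CDKN1C (r = 0.84), where ADAMTS4 had r = -0.04 within MDA-MB-231. EPCAM ran with SPINT2 (r = 0.78) and VAMP8 (r = 0.74), CLDN7 with CFP (r = 0.79), and CLDN3 with ALOX12B (r = 0.78). CLDN1 and PARAIL (r = 0.70), ESRP1 and SLCO5A1 (r = 0.69), and OCLN and FRZB (r = 0.68) were less alike.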

How the data were processed

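Stranded poly(A) RNA libraries of 52 samples were analysed at the gene level. The authors trimmed reads (Trim Galore 0.6.5, FastQC 0.11.9), aligned them to GRCh38 with STAR 2.7.2b and estimated levels with RSEM 1.3.3, per the labels and the study's methods. The deposited values used are expected counts per gene, TPM per gene, and the isoform percent of each transcript. Expected counts were rounded to whole numbers. Each cell line was fitted with its 6 group means in edgeR 4.0.16 (R 4.3.3; filterByExpr, TMM factors, robust quasi-likelihood F test), which left 20067 (SUM159PT), 18800 (MDA-MB-231) and 19661 (HS578T) genes. A fit of all samples with 18 group means (23416 genes) compared the cell lines. P-values were adjusted by Benjamini-Hochberg over all genes tested, and "called" or "passed" means an adjusted p under 0.05. Fold changes are log2 values with the SE taken from the F statistic, and other values are TPM. Of the 10 genes, 9 passed the filter for SUM159PT (not CLDN3), 9 for MDA-MB-231 (not ESRP1) and 10 for HS578T.

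Markers of another cell line had at most 0.5 CPM in every non-targeting sample of one line and at least 20 CPM in the other. Their level gave the share of foreign RNA. The reads that share would bring, at the mean level of the other line's non-targeting samples, were subtracted as an alternative. Counts that fell below 0 were set to 0. The study calls its samples independent biological replicates, which for the shRNAs were consecutive passages, so p-values measure the spread between these samples. Same-numbered samples deviated together in every pair only in the HS578T shRNA groups (7 of 7 pairs above 0.1, lowest r = 0.232), where the blocked value is given beside a call it changes. In each related list, up to 3 genes with at least 3 calls in 1 direction are named. Some genes that this rule or the likeness rule would name are not reported here. The members, lists and tests were chosen with earlier results of these data known. The test scripts were checked on simulated counts. DESeq2 1.42.0, limma 3.58.1 on log2(TPM + 0.5), RLE factors, no filter, 2-group fits, a replicate block and leaving out each sample were the alternatives.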

Additional observations from a re-analysis of the deposited data

Results flagged for a closer look

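Responses that differed among the 3 cell lines drew attention, by the test of equal log2 fold changes in the fit of all samples (edgeR adjusted p). For CLDN1 they were siNRP1#3 (0.00257), siNRP1#5 (0.000341), shNRP1#3 (0.0176) and shNRP1#5 (0.0024). CLDN1 rose in SUM159PT with the shRNAs and in HS578T with the siRNAs, and no MDA-MB-231 change of it against the control passed in the main fit. With replicate number as a block, CLDN1 was called higher in MDA-MB-231 with siNRP1#3, siNRP1#5 and shNRP1#3. For CLDN4 they were siNRP1#3 (0.0417), siNRP1#5 (0.000678) and shNRP1#5 (3.66e-08). For CDH1 they were siNRP1#3 (0.00258), siNRP1#5 (0.000773) and shNRP1#5 (0.0265). OCLN (0.00148) and F11R (0.000759) differed with siNRP1#5, as did CLDN3 (1.46e-05), CLDN7 (0.0305) and EPCAM (0.00235), all with HS578T libraries of 12.0 to 22.6% MDA-MB-231 RNA. Without those libraries, where SUM159PT and MDA-MB-231 alone are compared, none of these 5 genes' siNRP1#5 responses was called, nor was that of CLDN1 (0.707), while those of CLDN4 (0.019) and CDH1 (0.00112) were. After subtraction of foreign reads, CLDN4 was not called with siNRP1#3 (0.719) or siNRP1#5 (0.349), nor CLDN1 with shNRP1#3 (0.108), CDH1 with shNRP1#5 (0.0708) or F11R with shNRP1#5 (0.338). With shNRP1#5, OCLN (0.00782) and F11R (0.0455) differed as well.

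Sequence #5 gave a different response as siRNA than as shRNA in 4 cases (edgeR adjusted p). In MDA-MB-231 these were CDH1 (5.27e-06), CLDN4 (0.000384) and F11R (0.0137), and in HS578T CLDN4 (0.0232), which rests on the libraries with MDA-MB-231 RNA. Delivery, selection and time of harvest differ together between siRNA and shRNA and cannot be told apart.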

How the results depend on the processing

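The 26 calls of a junction gene against its control were recomputed under the alternatives, which gave 361 pairs of a call and a setting. Of these, 316 kept the direction and the call, 43 kept the direction and lost it, and 2 reversed. Pairs in which the gene could not be tested are not counted, such as CLDN3 in HS578T siNRP1#5 after either subtraction. The reversals were OCLN in HS578T siNRP1#5 after subtraction of reads of other cell lines, at -2.99, and at -7.24 with markers chosen on their mean. Both markers chosen on their mean and the fit without the HS578T siNRP1#5 samples and siNRP1#3 replicate 3 were added after seeing the data. In HS578T 8 calls were higher, against 14 without a filter on low counts and 2 after either subtraction, and 0 were lower, against 1 after either subtraction. The fit without those libraries has no siNRP1#5 comparison. It gave 2 higher calls, where the main fit gave 1 outside siNRP1#5, CLDN1 with siNRP1#3. In SUM159PT 1 call was lower, against 0 with limma on log2(TPM + 0.5) and 2 after either subtraction, where CLDN4 with siNRP1#3 was added. In MDA-MB-231 1 call was higher, against 5 with no filter. Responses called unequal among cell lines were 17, and 8 after subtraction and 11 without HS578T siNRP1#5. Beyond the subtraction and the left-out libraries the cause was not tested.

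Leaving out 1 sample at a time gave 4 to 6 higher and 0 to 1 lower calls in SUM159PT, 1 to 2 higher and 8 to 12 lower calls in MDA-MB-231, and 6 to 9 higher and 0 lower calls in HS578T. The lone SUM159PT siNRP1#5 or HS578T shNRP1#3 sample left is then assumed to vary like the other groups. With the replicate number as a block all 26 calls held, and MDA-MB-231 had 4 higher calls, CLDN1 being added with siNRP1#3, siNRP1#5 and shNRP1#3. With the block HS578T had 11 higher calls, and SUM159PT had 6 against 5 in the main fit. Outside the HS578T shRNA groups the numbers did not pair the samples in every pair, with the lowest r (-0.442) in the HS578T siRNA groups. The block is therefore given only here and for CLDN1 above. In the MDA-MB-231 siRNA groups 7 of 9 pairs were above 0.1, and in the SUM159PT siRNA groups 6 of 7 (lowest r = 0.0765). At this depth genes with under about 1 TPM, such as CDH1 and ESRP1, rest on few reads, and their precision is limited.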
